A study of Rattus norvegicus with 17 samples.

Results

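Transcripts of the cholesterol synthesis pathway were examined in rat tumours exposed to NVP-BEZ235, an inhibitor of the kinases PI3K and mTOR. The gene set was given by name as Hmgcs1, Idi1, Fdps, Fdft1, Sqle, Lss and Insig1, and a gene counted as measured when a probe set of the array was annotated with its symbol alone. This held for 6 of the 7 genes, out of 14506 genes measured in all. Hmgcs1, the enzyme that makes HMG-CoA, had no probe set listed under its symbol and was not analysed here. The set is also described as LDL uptake genes, but none of its members takes up lipoproteins: 5 of the 6 measured genes encode enzymes and Insig1 encodes a regulator. Uptake genes were therefore followed in a separate list.

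The 17 arrays fell into 3 groups by treatment. NVP-BEZ235 was given at 30 mg/kg in 4 samples (3 female, 1 male) and at 20 mg/kg in 6 samples (4 female, 2 male), and the 7 controls (5 female, 2 male) received 20 mg/kg polyethylene glycol (PEG). All rats, controls included, were 8 months old, of the strain Sprague-Dawley white eye/Wistar-Kyoto, and carried the p27Kip1 (Cdknb1) mutation, which removes a cell cycle inhibitor. The sample labels call this mutation homozygous and the series' design text calls it heterozygous. How long the rats were treated, and whether each array came from a separate animal, is not stated in the labels, so p-values measure only the spread between these samples. The samples are numbered 1 to 4 at 30 mg/kg, 5 to 10 at 20 mg/kg and 1 to 7 in the controls, and numbers 1 to 4 and 5 to 10 are called the 2 sets of arrays here. Among treated samples dose and set cannot be told apart. Controls 6 and 7 are the only male controls.

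Values are RMA values on a log2 scale, in which a difference of 1 is a doubling. The array medians lay between 4.95 and 5.11, and the number of arrays limits the precision. The tissue label is pituitary adenoma. Pheochromocytoma, which arises from chromaffin cells of the adrenal medulla, is the tumour in the title of the series. Of the 7 pituitary hormone genes measured, 6 had a mean below the median of the arrays. Steroid-making adrenal cortex genes were high on all arrays: Star, which carries cholesterol into mitochondria, averaged 12.11 ± 0.19 and Cyp11a1, which begins steroid synthesis from cholesterol, 12.02 ± 0.26 (SD, n = 17). Chromaffin genes were high as well, with Th, the first enzyme of catecholamine synthesis, at 12.29 ± 0.32 and Dbh, which makes noradrenaline, at 12.32 ± 0.25 (SD, n = 17). The hormone markers of the labelled tissue were thus mostly below the array median.

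Cells make cholesterol from acetyl-CoA through mevalonate, farnesyl diphosphate and squalene, and adrenal cortex cells use cholesterol to make steroids. The transcription factor SREBP2 turns on most genes of this chain together with the LDL receptor when membrane cholesterol is low. INSIG proteins hold the SREBP precursor in the endoplasmic reticulum when sterols are plentiful, and Insig1 is itself a target of SREBP. SREBP2 and its relative SREBP1 bind sterol regulatory elements in promoters, usually next to sites for NF-Y and Sp1.

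The stretch before the start of the gene is shown for the 4 measured members with an entry in the RefSeq promoter table, because these members share a regulator and Idi1 and Fdps were the members called in the tests. Of the 7 named genes, 5 had an entry there, Hmgcs1 included. Coordinates are in the build GRCr8, and each sequence is the 250 bases before the start, in the direction of transcription: Idi1 at chr17:66547525-66547774, Fdps at chr2:176804817-176805066, Lss at chr20:12118231-12118480 and Insig1 at chr4:8057770-8058019, all on the minus strand. Capitals mark the NF-Y box CCAAT and the Sp1 box GGGCGG on either strand, so that ATTGG and CCGCCC are the reverse forms.
Idi1: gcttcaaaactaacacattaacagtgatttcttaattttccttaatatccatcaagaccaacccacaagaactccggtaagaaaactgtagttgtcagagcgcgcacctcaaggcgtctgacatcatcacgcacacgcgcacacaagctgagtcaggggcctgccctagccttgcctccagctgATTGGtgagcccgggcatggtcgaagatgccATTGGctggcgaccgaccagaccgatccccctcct
Fdps: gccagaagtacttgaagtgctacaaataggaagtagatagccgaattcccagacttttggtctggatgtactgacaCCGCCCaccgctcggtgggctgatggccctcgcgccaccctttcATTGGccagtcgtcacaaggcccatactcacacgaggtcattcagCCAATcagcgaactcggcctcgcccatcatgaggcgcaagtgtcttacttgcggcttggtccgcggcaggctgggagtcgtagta
Lss: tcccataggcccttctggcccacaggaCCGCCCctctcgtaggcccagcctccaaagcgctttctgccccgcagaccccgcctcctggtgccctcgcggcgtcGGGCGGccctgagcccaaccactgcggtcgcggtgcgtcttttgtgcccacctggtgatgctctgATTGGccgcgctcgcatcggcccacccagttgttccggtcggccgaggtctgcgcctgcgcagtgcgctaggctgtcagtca
Insig1: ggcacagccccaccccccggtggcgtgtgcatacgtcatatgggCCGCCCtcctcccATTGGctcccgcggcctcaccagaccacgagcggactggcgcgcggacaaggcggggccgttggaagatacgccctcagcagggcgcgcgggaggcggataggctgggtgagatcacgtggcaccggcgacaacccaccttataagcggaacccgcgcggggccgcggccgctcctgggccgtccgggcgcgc

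The NF-Y box was present in 5 of the 5 members in the table and in 34% of the 33469 promoters of that length. An Sp1 box was present in 4 of the 5, all but Idi1, and in 30.5% of promoters. The classical sterol regulatory element, searched as TCACNCCA, was found in 0 of the 5 members and in 3.24% of promoters. The same letters with A before them and C after them were found in 0 of the 5 and in 0.23%. The boxes searched did not overlap one another in these members. In Fdps the NF-Y boxes lay 130 to 126 and 85 to 81 bases before the start, and in Idi1 66 to 62 and 35 to 31 bases before it. These matches describe letters and not binding.

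The first measured member along the chain was Idi1, the isomerase that turns isopentenyl diphosphate into dimethylallyl diphosphate. At 30 mg/kg its log2 values were 5.92, 4.18, 5.67 and 5.53, against 5.65, 4.70, 6.93 and 6.32 in controls 1 to 4. At 20 mg/kg they ran from 4.99 through a median of 5.73 to 6.57, against 7.10, 7.90 and 8.40 in controls 5 to 7. All 20 mg/kg samples lay below all controls of their set, whereas the 30 mg/kg samples overlapped their controls. Across all 17 arrays Idi1 ran from 4.18 to 8.40, the widest range of the 6 genes.

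Fdps makes farnesyl diphosphate, the last compound shared by sterols and the other isoprenoids. Its log2 values at 30 mg/kg were 8.01, 8.09, 8.69 and 8.55, against 8.61, 8.57, 8.78 and 8.77 in controls 1 to 4. The 20 mg/kg samples ran from 8.71 through a median of 8.97 to 9.15, against 9.27, 9.68 and 9.90 in controls 5 to 7. Here too the 20 mg/kg samples lay wholly below their controls. All 30 mg/kg samples also lay below all 20 mg/kg samples, but controls 1 to 4 in turn lay wholly below controls 5 to 7.

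Fdft1 encodes squalene synthase, which commits farnesyl diphosphate to sterols. It had log2 values of 7.01, 7.26, 7.81 and 8.15 at 30 mg/kg, against 8.10, 7.89, 8.42 and 8.17 in controls 1 to 4. At 20 mg/kg the lowest value was 6.79, the median 7.57 and the highest 8.34, against 8.01, 8.33 and 8.73 in controls 5 to 7. The ranges overlapped in both sets, through sample 4 at 30 mg/kg and sample 5 at 20 mg/kg. Between the control sets Fdft1 had means of 8.36 ± 0.36 in controls 5 to 7 (SD, n = 3) and 8.14 ± 0.22 in controls 1 to 4 (SD, n = 4).

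Sqle, the epoxidase that oxidises squalene, had log2 values of 7.57, 7.37, 8.00 and 8.09 at 30 mg/kg, against 7.62, 7.50, 8.11 and 8.72 in controls 1 to 4. At 20 mg/kg it ran from 7.60 through a median of 8.04 to 8.35, against 8.45, 8.82 and 8.96 in controls 5 to 7. The second set again had no overlap and the first did. Lss, the cyclase that makes lanosterol, stood at 6.85, 6.08, 6.28 and 6.80 at 30 mg/kg, against 6.46, 6.47, 6.77 and 5.59 in controls 1 to 4. Its 20 mg/kg values ran from 6.06 through a median of 6.36 to 6.50, against 6.43, 6.84 and 6.82 in controls 5 to 7. Its groups overlapped in both sets.

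Insig1 had log2 values of 8.92, 8.02, 9.31 and 8.95 at 30 mg/kg, against 8.69, 9.17, 9.51 and 8.82 in controls 1 to 4. At 20 mg/kg the values ran from 8.43 through a median of 8.79 to 9.50, against 8.97, 9.66 and 9.85 in controls 5 to 7. Its groups overlapped in both sets. Insig1 was the only member with 2 probe sets, and these values are from the one with the higher mean, 9.03 against 7.18 for the other.

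**Figure D1:**
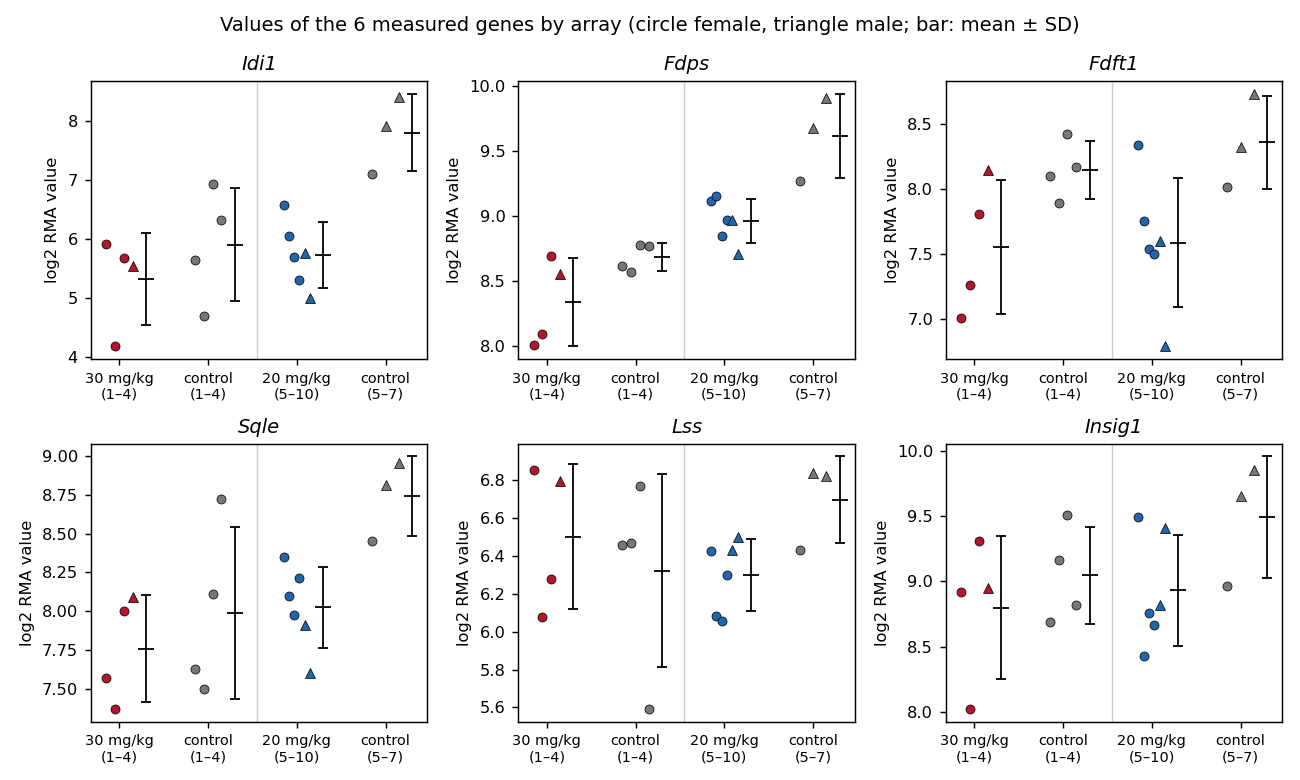
Log2 RMA values of Idi1, Fdps, Fdft1, Sqle, Lss and Insig1 on each array, by treatment and set of title numbers (circles female, triangles male; bars mean ± SD of 4, 4, 6 and 3 arrays). In the right part of the Idi1, Fdps and Sqle panels the 20 mg/kg arrays lie below all controls 5 to 7, of which both triangles, controls 6 and 7, are the highest.

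With both doses pooled, all 6 genes had a negative change, against 50.4% of all genes, but none passed the test. Limma with sex as a term, adjusted over all 14506 genes by the Benjamini-Hochberg method, called 0 of the 6, against 1.48% of all genes, and 2 of the 6 had an unadjusted p under 0.05, against 14.4% of all genes. The median log2 change of the 6 was -0.39, against -0.00 over all genes. Idi1 averaged 5.57 ± 0.65 in treated samples (SD, n = 10) and 6.71 ± 1.28 in controls (SD, n = 7), a limma change of -1.16 ± 0.41 (SE, adjusted p = 0.18). Fdft1 had the smallest p of the 6, with 7.57 ± 0.48 in treated samples (SD, n = 10) and 8.24 ± 0.28 in controls (SD, n = 7), and a limma change of -0.66 ± 0.19 (SE, adjusted p = 0.10). Changes of the other 4 genes lay between -0.40 for Sqle and -0.11 for Lss, with limma adjusted p from 0.38 to 0.83. No gene of the 6 had its treated samples wholly below the controls, against 0.165% of all genes, although 10 of 10 treated samples lay under the control mean for Idi1, 9 of 10 for Fdft1 and Sqle, 8 of 10 for Fdps and 7 of 10 for Lss and Insig1. With the set of title numbers as a further term in this fit, limma called 2 of the 6 lower, Idi1 at -1.31 (adjusted p = 0.048) and Fdps at -0.50 (adjusted p = 0.023). Of all genes, 4.91% were called in either direction in that fit. In bulk tissue, fewer cells of a type and less RNA per cell cannot be told apart.

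Each dose was then set against all 7 controls, which both comparisons share. At 30 mg/kg Fdps fell, averaging 8.33 ± 0.34 (SD, n = 4) against 9.08 ± 0.54 in controls (SD, n = 7), with a limma change of -0.73 ± 0.21 (SE, adjusted p = 0.036). This was 1 of the 6 genes, against 4.89% of all genes called lower at that dose. The call was lost when any of controls 5, 6 and 7 or of the 30 mg/kg samples 1, 2 and 4 was left out (limma adjusted p from 0.067 to 0.13), and against controls 1 to 4 alone the change was -0.42 ± 0.19 (SE, limma adjusted p = 0.55). Idi1 had a larger but more variable log2 change of -1.37 ± 0.52 (SE, limma adjusted p = 0.11). Fdft1 stood at -0.68, Sqle at -0.54, Insig1 at -0.42 and Lss at 0.03, with limma adjusted p from 0.10 to 0.95.

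At 20 mg/kg limma called 0 of the 6 genes against all controls, with 1.18% of all genes called, and 2 of the 6 at an unadjusted p under 0.05, against 17.4% of all genes. Log2 changes were -1.02 ± 0.46 for Idi1, -0.66 ± 0.22 for Fdft1 and -0.14 ± 0.19 for Fdps (SE; limma adjusted p of 0.27, 0.14 and 0.73). Fdps thus stood at -0.73 at 30 mg/kg and -0.14 at 20 mg/kg against the same controls.

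The 2 doses were also compared with each other. Limma called 0 of the 6 genes, against 12.1% of all genes, and 1 of the 6 had an unadjusted p under 0.05, against 29.1% of all genes. Fdps had a log2 change of -0.59 ± 0.22 for 30 over 20 mg/kg (SE, limma adjusted p = 0.078, 95% interval -1.05 to -0.14). It was the 1 gene of the 6 whose 30 mg/kg samples all lay lower, against 7.42% of all genes. For Idi1 the interval of the difference was wide, from -1.48 to 0.78. The control sets differed for Fdps in the same direction as the doses, as given next.

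Controls 5 to 7 were higher than controls 1 to 4 for Fdps, which averaged 9.62 ± 0.32 (SD, n = 3) against 8.68 ± 0.11 (SD, n = 4). The limma log2 change was 0.86 ± 0.20 (SE, adjusted p = 0.033), and 1 of the 6 genes was called higher, against 2.68% of all genes. The call was lost without control 1, 2, 5, 6 or 7 or the 20 mg/kg sample 10 (limma adjusted p from 0.055 to 0.085), with quantile normalization (limma adjusted p = 0.053), and in females alone, where the change was 0.59 (limma adjusted p = 0.38). Idi1 averaged 7.80 ± 0.66 in controls 5 to 7 (SD, n = 3) and 5.90 ± 0.96 in controls 1 to 4 (SD, n = 4), with a larger change of 1.85 ± 0.58 (SE, limma adjusted p = 0.084). Both genes had all controls 5 to 7 above all controls 1 to 4, which made 2 of the 6, against 10.9% of all genes. Sqle stood at 0.73 ± 0.30 (SE, limma adjusted p = 0.17), and Fdft1, Lss and Insig1 at 0.16 to 0.19. The members' median was 0.46, against -0.03 over all genes. Because of this difference the comparisons within each set, which hold the set fixed, are given next.

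Within numbers 5 to 10, Idi1 fell at 20 mg/kg to 0.238 of the control level, a limma log2 change of -2.07 ± 0.36 (SE, adjusted p = 0.025). It averaged 5.73 ± 0.56 in treated samples (SD, n = 6) and 7.80 ± 0.66 in controls 5 to 7 (SD, n = 3), and the groups did not overlap. Sqle had a change of -0.76 ± 0.18 and Fdps of -0.64 ± 0.16 (SE; limma adjusted p of 0.068 and 0.084). Fdft1 stood at -0.84 ± 0.28, Insig1 at -0.41 ± 0.24 and Lss at -0.30 ± 0.11 (SE; limma adjusted p of 0.17, 0.43 and 0.23). Limma called 1 of the 6 as lower, against 0.979% of all genes. Idi1, Fdps and Sqle, 3 of the 6, had treated samples wholly below controls, against 2.9% of all genes. The median log2 change of the 6 was -0.70, against 0.01 over all genes.

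This fall of Idi1 rests on few controls. Without control 7 the limma log2 change was -1.80 (adjusted p = 0.096) and without control 6 it was -2.02 (adjusted p = 0.081), and the adjusted p was 0.051 to 0.055 without the 20 mg/kg sample 6, 7 or 9. In females only, where control 5 is the single control and its spread was taken from the treated arrays, the change was -1.19 ± 0.39 (SE, limma adjusted p = 0.34), a setting that moves the value by over 1.5 times. The female 20 mg/kg samples had Idi1 values of 6.57, 6.06, 5.70 and 5.31, all below the 7.10 of control 5, and the males had 5.75 and 4.99, below the 7.90 and 8.40 of controls 6 and 7.

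Within numbers 1 to 4, limma called 0 of the 6 genes at 30 mg/kg, against 0.11% of all genes, and 1 of the 6 had an unadjusted p under 0.05, against 9.5% of all genes. That gene was Fdft1, at -0.79 ± 0.22 (SE, limma adjusted p = 0.29), beside -0.84 in the other set. Fdps stood at -0.42, Idi1 at -0.65, Sqle at -0.34, Insig1 at -0.30 and Lss at 0.08, with limma adjusted p from 0.55 to 0.96. No gene had its 30 mg/kg samples wholly below controls 1 to 4, against 3.52% of all genes. The only male of this set, the 30 mg/kg sample 4, is taken up by the sex term, so these changes come from the females.

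Whether the treatment change differed between the sets was tested with a product term. For Idi1 the change within numbers 5 to 10 was lower than that within 1 to 4 by a log2 difference of -1.45 ± 0.71 (SE, limma adjusted p = 0.76, 95% interval -2.95 to 0.050). The term called 0 of the 6 genes and 0% of all genes by limma, and at an unadjusted p under 0.05 it called 0 of the 6, against 6.7% of all genes. A larger response in either set was therefore not shown.

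**Figure D2:**
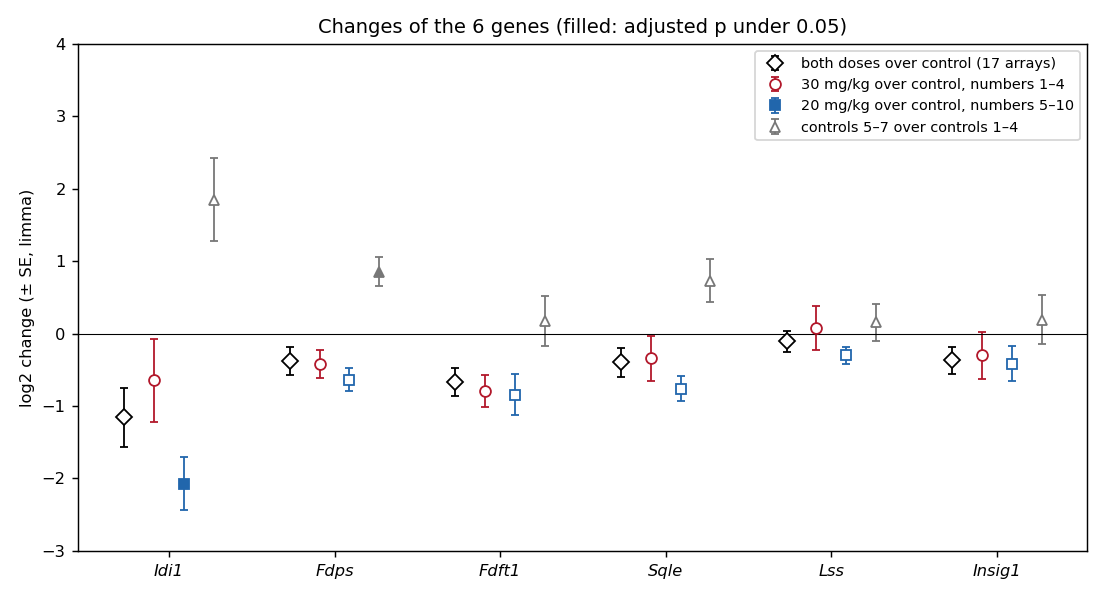
Limma log2 changes (± SE) of the 6 genes for both doses over control, for 30 mg/kg over control within numbers 1 to 4, for 20 mg/kg over control within numbers 5 to 10, and for controls 5 to 7 over controls 1 to 4. Filled marks passed an adjusted p of 0.05: Idi1 within numbers 5 to 10 (-2.07) and Fdps between the control sets (0.86).

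Sex was a term in the fits. Males over females gave positive log2 changes for all 6 genes, from 0.11 for Fdft1 to 0.69 for Idi1, while 52.2% of all genes had a negative change. Limma called 0 of the 6, against 0.241% of all genes, and 2 of the 6 had an unadjusted p under 0.05, against 15.3% of all genes. Without controls 6 and 7 the value turned to -0.20 for Idi1, -0.09 for Fdft1 and -0.07 for Sqle. The 3 treated males had Idi1 values of 5.53, 5.75 and 4.99, within the range of the treated females.

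Single arrays stood apart for the whole set. With each gene centred on its own mean over 17 arrays and the 6 genes averaged, control 7 was highest at 1.06 and held the highest value of 5 of the 6 genes. Control 6 followed at 0.82. The lowest was the 30 mg/kg sample 2 at -0.88, which held the lowest value of 3 of the 6 genes. Among all other arrays this mean lay between -0.38 and 0.37.

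Without controls 6 and 7 the changes for both doses were smaller, with Idi1 at -0.51, Fdps at -0.10 and Fdft1 at -0.52, and limma adjusted p from 0.40 to 0.90. The 30 mg/kg sample 2 also stood apart in fat cell genes. Its mean over 7 adipocyte markers was 8.51, against 4.34 to 6.57 on the other 16 arrays, with Ucp1, the brown fat uncoupler, at 9.45 and at most 7.18 elsewhere. Leaving this sample out changed Idi1 within numbers 1 to 4 to a log2 change of -0.11. The part of fat cells in these values was not tested.

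Markers of other cell types moved with treatment as well. For both doses over control, limma called Cd74 (-1.49) of 10 macrophage, Cd2 (-0.49) and Cd3d (-0.99) of 8 lymphocyte, Col3a1 (-0.68) of 8 fibroblast and the globin genes Hbb (-2.40), Hbb-b1 (-2.45) and Hba-a3 (-1.47) of 5 erythroid markers lower, and Flt1 (0.74) of 7 endothelial markers higher (adjusted p from 0.0064 to 0.045). Of all genes, 0.965% were called lower in that comparison and 1.48% in either direction. In the other marker lists none passed, and the 2 genes with the smallest p were Mc2r (-1.05) and Cyp11b1 (-0.57) among cortex, Th (0.32) and Phox2a (-0.40) among chromaffin, Prl (-0.91) and Tshb (0.30) among pituitary hormone, and Retn (0.90) and Cidec (0.92) among adipocyte genes (limma adjusted p from 0.083 to 0.50). At 30 mg/kg over all controls, limma called 4 of 10 macrophage, 3 of 8 lymphocyte, 3 of 5 erythroid, 1 of 8 chromaffin and 1 of 8 fibroblast markers lower, against 4.89% of all genes. It called 3 of 7 endothelial, 2 of 7 adipocyte, 1 of 11 adrenal cortex and 1 of 8 fibroblast markers higher, against 3.66% of all genes. The cortex marker was Mrap, the ACTH receptor partner, at 1.38 (limma adjusted p = 0.0019), and the chromaffin marker was Ddc, a catecholamine enzyme, at -1.95 (limma adjusted p = 0.0013). The mean over the macrophage markers lay between 6.55 and 7.45 at 30 mg/kg, against 7.51 to 7.95 in controls, and that over the endothelial markers between 8.06 and 8.23 at 30 mg/kg, against 7.22 to 7.85 in controls. Within numbers 5 to 10, limma called 1 of 10 macrophage, 3 of 8 lymphocyte, 1 of 8 fibroblast and 1 of 5 erythroid markers lower, against 0.979% of all genes, and 1 of 7 endothelial markers higher, against 0.214% of all genes. The mean over the lymphocyte markers lay between 4.31 and 4.43 at 20 mg/kg, against 4.68 to 4.95 in controls 5 to 7. Of these 8 lymphocyte markers, 6 had a mean below the median of the arrays, so their calls rest mostly on dim genes. In the set of numbers 5 to 10, 0 of 11 adrenal cortex and 0 of 8 chromaffin markers were called. The cortex mean there lay between 9.55 and 10.20 at 20 mg/kg, against 9.82 to 10.22 in controls 5 to 7. At 20 mg/kg over all controls, limma called 1 of 11 adrenal cortex, 1 of 8 lymphocyte and 2 of 8 fibroblast markers lower. Of all genes, 1.18% were called in either direction in that comparison. The cortex marker was Mc2r, the ACTH receptor, at -1.47 ± 0.26 (SE, limma adjusted p = 0.017), averaging 8.65 at 20 mg/kg and 10.17 in controls. The part of these cells in the changes of Fdps and Idi1 was not tested.

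**Figure D3:**
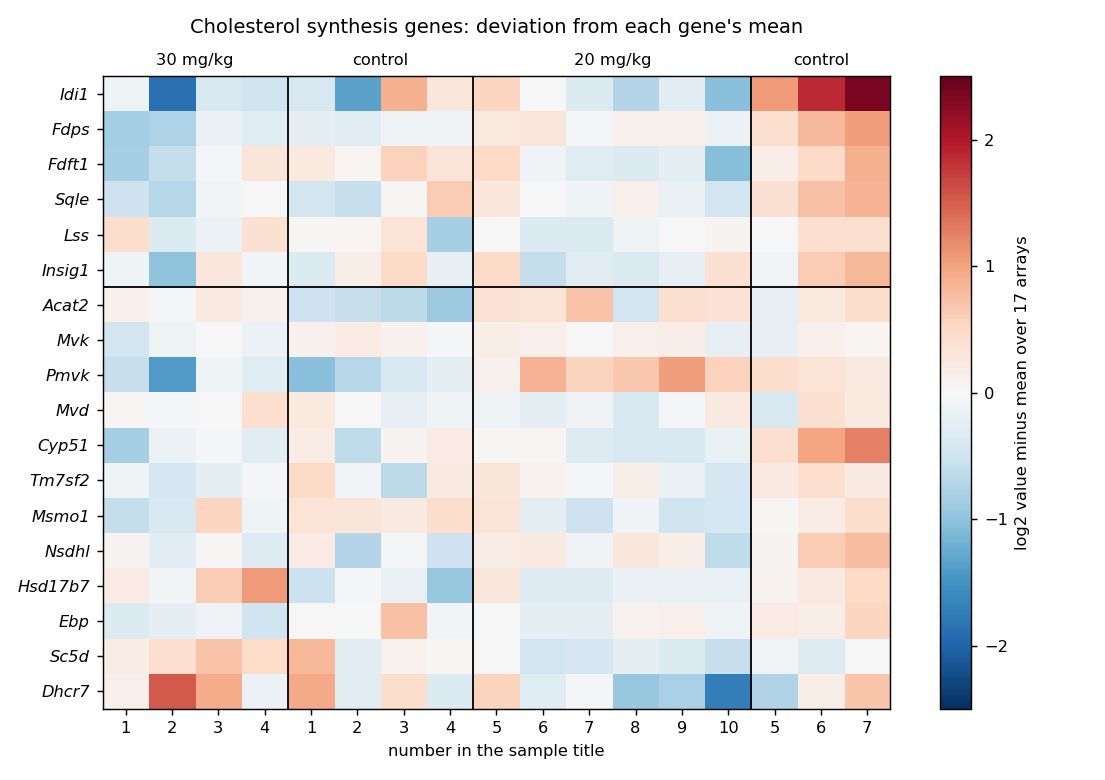
Deviation of each log2 value from the gene's mean over 17 arrays, for the 6 measured genes (above the line) and 12 other enzymes of cholesterol synthesis, with arrays in columns by group and title number. Control 7 has the highest value of 5 of the 6 genes, and the 30 mg/kg sample 2 the lowest of 3.

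The 6 genes did not move as 1 block. Over the 17 arrays, the 15 pairwise correlations ran from 0.04 for Sqle with Lss to 0.86 for Idi1 with Sqle, and the arrays share groups and sets. The second probe set of Insig1 gave -0.26 ± 0.24 for both doses over control against -0.37 for the one used, 0.02 ± 0.28 for 30 mg/kg over control, against -0.42, and -0.45 ± 0.25 for 20 mg/kg over control, against -0.33 (SE, limma over all 29214 probe sets for the second, adjusted p of 0.77, 0.98 and 0.42).

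Other enzymes of the chain were less uniform. Of 14 listed, 12 were measured, and with both doses over control 9 of the 12 were negative, against 50.4% of all genes. In either direction 0 passed, and the median log2 change was -0.09. The 2 with the smallest p were Msmo1, a sterol methyl oxidase, at -0.48 ± 0.15, and Cyp51, which removes a methyl group from lanosterol, at -0.61 ± 0.19 (SE; limma adjusted p of 0.12 for each). Within numbers 5 to 10 Cyp51 fell, the 1 of the 12 to pass, against 0.979% of all genes called lower. Its 20 mg/kg samples ran from 7.50 through a median of 7.64 to 7.94, against 8.31, 8.87 and 9.14 in controls 5 to 7, with a limma log2 change of -1.03 ± 0.19 (SE, adjusted p = 0.027). These groups did not overlap. Within numbers 1 to 4 Cyp51 stood at -0.30 (limma adjusted p = 0.80). At 30 mg/kg over all controls Ebp, the sterol isomerase, fell, with a log2 change of -0.51 ± 0.15 (SE, limma adjusted p = 0.041), and within numbers 1 to 4 it stood at -0.38 (limma adjusted p = 0.65). The medians of these 12 enzymes were -0.04 within numbers 1 to 4 and -0.36 within numbers 5 to 10.

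Genes that control SREBP showed no call for both doses over control: 11 of 13 listed were measured, 0 passed in either direction, and the median log2 change was 0.07. Nr1h3, the oxysterol receptor LXR alpha, stood at -0.32 and Mbtps2, a protease that releases SREBP, at 0.27 (limma adjusted p of 0.19 and 0.45). In the list of uptake and lysosomal release, 8 of 11 were measured and 0 passed, with a median of 0.05. Npc1, which moves cholesterol out of lysosomes, stood at 0.40 and Stard4, a sterol carrier, at -0.35 (limma adjusted p of 0.27 and 0.29). At 30 mg/kg over all controls Npc1 rose, averaging 8.00 ± 0.26 (SD, n = 4) against 7.26 ± 0.35 in controls (SD, n = 7), with a limma change of 0.74 ± 0.17 (SE, adjusted p = 0.013). It was the 1 of the 8 to pass, against 3.66% of all genes called higher, and within numbers 1 to 4 it stood at 0.71 (limma adjusted p = 0.42).

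Esterification, storage and efflux genes were all measured, 11 of 11, and 0 passed for both doses over control, with a median log2 change of 0.17. Osbpl2 and Osbp, both oxysterol binding proteins, stood at 0.46 and 0.22 (limma adjusted p of 0.15 and 0.38). At 30 mg/kg over all controls 2 of the 11 rose and 1 fell, against 3.66% and 4.89% of all genes, but within numbers 1 to 4 limma called 0 of the 11, against 0.11% of all genes. Nceh1, which hydrolyses cholesterol esters, averaged 8.98 ± 0.13 at 30 mg/kg (SD, n = 4) and 7.99 ± 0.27 in controls (SD, n = 7), a limma change of 0.99 ± 0.13 (SE, adjusted p = 0.00044). Its 30 mg/kg samples lay between 8.81 and 9.12, above the highest control at 8.29. Osbp rose by 0.43 and Apoe, a lipoprotein component, fell by 0.49 on the log2 scale (limma adjusted p of 0.033 and 0.026). Within numbers 1 to 4 Nceh1 stood at 0.86, Osbp at 0.38 and Apoe at -0.33 (limma adjusted p of 0.11, 0.57 and 0.57). At 20 mg/kg over all controls Soat1, which makes cholesterol esters, fell by 0.86 (limma adjusted p = 0.042), and within numbers 5 to 10 it stood at -0.56 (limma adjusted p = 0.24).

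Branches that use farnesyl diphosphate for other isoprenoids had 9 of 11 genes measured, 0 passing for both doses and a median log2 change of 0.20. Fnta, a subunit of the farnesyl and geranylgeranyl transferases, stood at 0.30 and Ggps1, which makes geranylgeranyl diphosphate, at 0.37 (limma adjusted p of 0.10 and 0.11). Ggps1 rose at 20 mg/kg over all controls, by 0.50 ± 0.11 (SE, limma adjusted p = 0.038), while Fdps, which makes its substrate, stood at -0.14 there. Within numbers 5 to 10 Ggps1 stood at 0.51 ± 0.11 and was not called (SE, limma adjusted p = 0.053).

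In fatty acid synthesis, the SREBP1 branch, limma called genes for both doses: of 13 measured genes 3 fell, against 0.965% of all genes, and 0 rose, with a median of -0.07. Fads2 averaged 9.38 in treated samples and 11.01 in controls, a limma log2 change of -1.61 ± 0.25 (SE, adjusted p = 0.0054), and Fads1 8.35 in treated samples and 10.21 in controls, a change of -1.85 ± 0.30 (SE, adjusted p = 0.0064). These are the desaturases of polyunsaturated fatty acids. Me1, the malic enzyme that supplies NADPH, changed by -0.78 ± 0.17 (SE, limma adjusted p = 0.030). All 3 genes also passed at 30 mg/kg over all controls, with Fads1 at -1.88, Fads2 at -1.53 and Me1 at -0.86 (limma adjusted p of 0.0075, 0.0089 and 0.019). In the 20 mg/kg comparison Fads1 stood at -1.82 and Fads2 at -1.66 (limma adjusted p of 0.022 and 0.017), and Me1 at -0.72 (limma adjusted p = 0.065). Elovl5, a fatty acid elongase, was lower in controls 5 to 7 than in controls 1 to 4, by a log2 change of -0.94 (limma adjusted p = 0.038). Fads1 stood at -1.82 within numbers 1 to 4 and -2.02 within 5 to 10 (limma adjusted p of 0.22 and 0.060), whereas Idi1 stood at -0.65 within numbers 1 to 4 and -2.07 within 5 to 10.

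**Figure D4:**
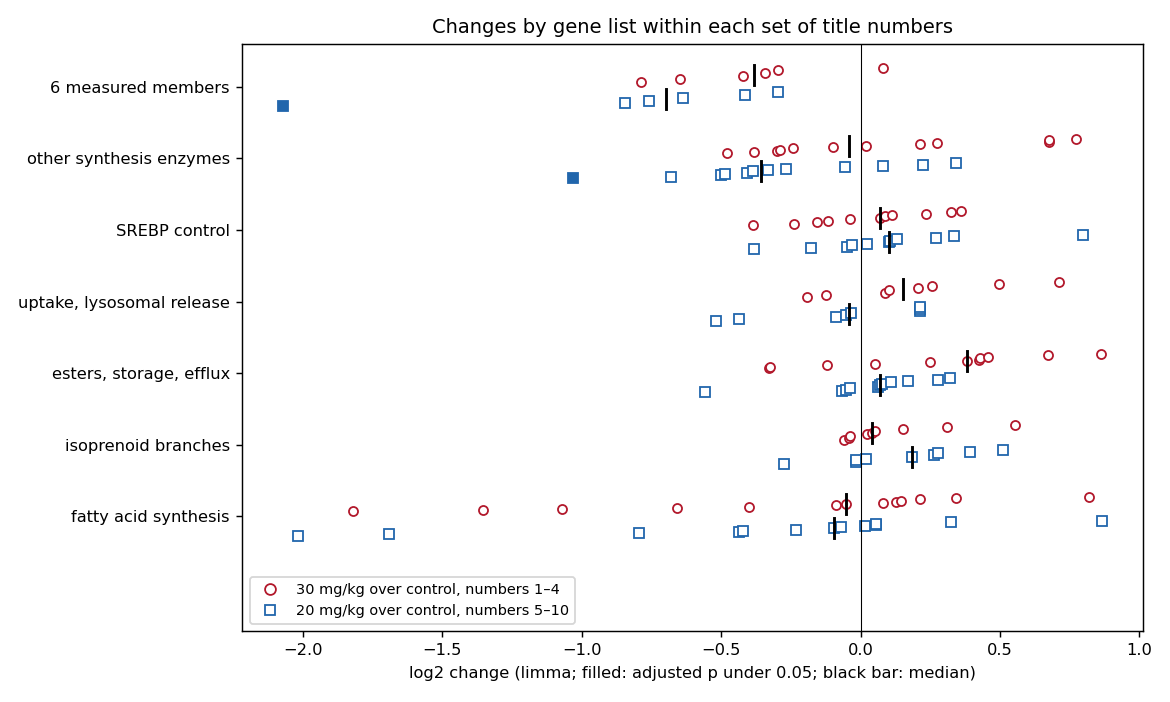
Limma log2 change of every measured gene in 7 lists, for 30 mg/kg over control within numbers 1 to 4 (circles) and 20 mg/kg over control within numbers 5 to 10 (squares), with filled marks for an adjusted p under 0.05 and black bars for list medians. The filled squares are Idi1 and Cyp51, and the medians of the 6 genes are -0.38 (circles) and -0.70 (squares).

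When the doses were compared, limma called 5 of the 11 esterification, storage and efflux genes higher and 1 lower at 30 mg/kg, against 3.92% of all genes higher and 8.16% lower. Nceh1 stood at 1.03 ± 0.14 and Soat1 at 0.97 ± 0.23 for 30 over 20 mg/kg (SE; limma adjusted p of 0.0015 and 0.014). Soat1 averaged 10.78 at 30 mg/kg and 9.77 at 20 mg/kg, and also 10.23 in controls 5 to 7 and 10.96 in controls 1 to 4, whose order is that of the doses. Nceh1 averaged 7.84 in controls 5 to 7 and 8.11 in controls 1 to 4, a difference in the same direction. Among the other synthesis enzymes Pmvk, the phosphomevalonate kinase, stood at -1.20 ± 0.27 and Sc5d, the sterol desaturase, at 0.77 ± 0.18 (SE; limma adjusted p of 0.012 and 0.014). Pmvk averaged 6.69 at 30 mg/kg and 7.93 at 20 mg/kg, but also 7.62 in controls 5 to 7 and 6.69 in controls 1 to 4, so here the dose difference runs along the set difference. Sc5d averaged 9.52 at 30 mg/kg and 8.73 at 20 mg/kg, and 8.94 in controls 5 to 7 and 9.24 in controls 1 to 4, again in the same direction. Insig2, the other INSIG gene, averaged 6.15 at 30 mg/kg and 7.22 at 20 mg/kg (limma change -1.03 ± 0.22 (SE), adjusted p = 0.010), and 7.33 in controls 5 to 7 and 6.52 in controls 1 to 4.

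The genes whose log2 values followed the centred mean of the 6 most closely over the 17 arrays were picked by Pearson's r from all other genes. They were Ccnb1 (r = 0.86, Spearman 0.72), Top2a (0.84, 0.70), Kif20a (0.83, 0.67), Rrm2 (0.83, 0.75), Kpna2 (0.83, 0.73), Klra2 (0.82, 0.84), Elovl6 (0.81, 0.70) and Cyp51 (0.81, 0.75). Cyclin B1, topoisomerase II alpha and the ribonucleotide reductase subunit Rrm2 are genes of dividing cells, and Elovl6 elongates fatty acids. Without controls 6 and 7, the arrays farthest from the median, r was 0.51 for Cyp51 to 0.72 for Kpna2 (n = 15), so these likenesses rest in part on those arrays. Klra2 and Kif20a were dim, with means of 3.40 and 3.72. Top2a (4.36), Ccnb1 (4.46) and Rrm2 (4.69) also had means below every array median.

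Controls 6 and 7 had Top2a values of 6.99 and 6.18, against 3.54 to 4.01 on all treated arrays and 4.23 to 5.02 on the other controls. Since these genes were chosen for following the members on the same arrays, no test is given for them here. Cyp51 and Elovl6 also belong to lists tested above, and the limma results of Cyp51 are given with its list. The fall of Cyp51 and its likeness to the members come from the same arrays, so they are not separate results. The part of dividing cells in the members' values was not tested.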

How the data were processed

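Gene expression was measured in 17 samples with Affymetrix arrays. Per the labels' protocols, total RNA was column-purified with DNase, amplified by a whole-transcriptome method and labelled with biotin. Affymetrix Expression Console 1.3.0.187 and RMA (version not given) are listed in the submitters' processing notes. The deposited values are log2 RMA values and were used as deposited. The annotation gave 15310 of 29214 probe sets 1 symbol and 323 several, and 13581 were not listed. Each of the 14506 genes was represented by its probe set of highest mean. No annotated coordinates of probe sets were used.

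Limma 3.58.1 in R 4.3.3 (lmFit, eBayes, two-sided) was fitted across all 14506 genes with Benjamini-Hochberg adjustment and a threshold of 0.05. Fits held treatment and sex, 3 groups and sex, or, over the sets, treatment, set, their product and sex; within-set fits used the 8 or 9 arrays of a set. The members, lists and comparisons were chosen with earlier results of these data known. All members were named. From each other list, the genes that passed for both doses, or else the 2 with the smallest p, were named. For other comparisons a gene was named only where it passed, and not every such gene was. The script was tested on simulated data. Same-numbered samples did not deviate together (correlations -0.29 to 0.23, 1 of 7 over 0.1), which gave no sign of pairing by number. These 7 values cannot show whether same-numbered samples shared a litter or a batch. No pairing was used in the main fits. Alternatives covered the sex term, variance prior, array weights, normalization, filter, probe sets, female samples, set term, replicate block and each sample left out; leaving out controls 6 and 7 was chosen after seeing the data.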

Additional observations from a re-analysis of the deposited data

Results flagged for a closer look

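The log2 value of Lss in control 4, 5.59, lay far below the other 6 controls, the nearest of which was at 6.43. It was the single value of its kind in 18 combinations of gene and group tested with Dixon's criterion, which chance alone passes in about 1 in 20 groups. Without control 4 the limma log2 change of Lss for both doses over control was -0.24.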

How the results depend on the processing

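Counts of members past the threshold moved in these settings. The share of all genes called can move as well: for both doses it was 4.91% with a set term, against 1.48% without. Shares under the other settings are not given here, so these counts are no result about the members. For both doses over control, array weights gave 1 (Fdft1, limma adjusted p = 0.043) and a set term gave 2 (Idi1 and Fdps, limma adjusted p of 0.048 and 0.023), against 0. For 30 mg/kg over control the count was 0 without the sex term, with all probe sets, in females, with a set term and without controls 6 and 7, against 1. For 30 over 20 mg/kg it was 1 without controls 6 and 7, against 0. For 20 mg/kg over control within numbers 5 to 10, array weights gave 3, quantile normalization gave 2, and females alone and the replicate block of numbers 5 to 7 gave 0, against 1. In that block Idi1 had a log2 change of -1.69 (limma adjusted p = 0.20). Between the control sets, no sex term or array weights gave 2, and quantile normalization or females alone gave 0, against 1.

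Leaving out each sample in turn gave 0 to 3 calls within numbers 5 to 10, 0 to 2 for 30 mg/kg over control and between the control sets, and 0 to 1 for both doses and for 30 over 20 mg/kg. Signs turned, for values that had not passed, as follows. Lss stood at 0.016 for both doses in the replicate block, and with array weights at -0.076 for 30 mg/kg and -0.057 within numbers 1 to 4. For 20 mg/kg, Fdps stood at 0.22 and Sqle at 0.077 in females, and Fdps at 0.16 without controls 6 and 7. For 30 over 20 mg/kg, quantile normalization gave Fdft1 0.10 and Insig1 0.049, and the mean of both probe sets gave Insig1 0.19. With the set term the same comparison gave Idi1 1.45, Fdps 0.24, Fdft1 0.15, Sqle 0.47 and Insig1 0.093. Dose and set go together in treated samples, so those set-term values are the product-term differences between the sets' changes with the sign reversed. They are neither a dose effect with the set held fixed nor a second result. For the difference of the sets' changes, females gave Fdps 0.17, Fdft1 0.56, Sqle 0.0465 and Insig1 0.17. Between the control sets, Insig1 stood at -0.026 with the mean of its probe sets, and in females Fdft1 at -0.13 and Insig1 at -0.079. For sex, dropping controls 6 and 7 gave Idi1 -0.20, Fdft1 -0.089 and Sqle -0.073.

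With single samples left out, Fdft1 ranged over -0.025 to 0.48 between the control sets, -0.25 to 0.15 between the doses, -0.44 to 0.23 in the difference of the sets and -0.016 to 0.34 for sex. Insig1 ranged over -0.30 to 0.13 between the doses, -0.58 to 0.066 within numbers 1 to 4 and -0.38 to 0.16 in the difference of the sets, and Lss over -0.085 to 0.31 between the control sets, -0.12 to 0.14 for 30 mg/kg and -0.16 to 0.24 within numbers 1 to 4. The causes were not tested.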
